A study of Mus musculus with 16 samples.

Results

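The 3 genes described here encode parts of the machinery that shows peptides from outside the cell to CD4 T cells. They were chosen as the probes whose only gene in the platform annotation is H2-Aa, H2-Ea or Cd74, which gave 3 probes, 1 for each gene, of 9596 on the array, or 3 of 6734 named genes. All 3 had values on 16 of 16 arrays and passed the requirement of values in at least 6 mice. MHC class II molecules are pairs of an alpha and a beta chain: H2-Aa encodes the alpha chain of the I-A molecule and H2-Ea that of I-E. Cd74, the invariant chain, holds the groove of newly made pairs closed and guides them to endosomes, where proteases cut it away and peptides are loaded. Dendritic cells, B cells and macrophages carry most of these molecules, in liver chiefly the macrophages and dendritic cells of the sinusoids and portal tracts, and the coactivator CIITA switches their genes on together, for example after interferon gamma.

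The samples were livers of 8 female APOE3Leiden mice, transgenic for APOE3-Leiden, a human apolipoprotein E variant, on a nearly pure C57BL6/JIco background. They had eaten cafestol (0.04% by weight) and kahweol (0.02%), diterpenes of coffee, in a Western-type diet with 15 g fat and 0.25 g cholesterol per 100 g, for 4 weeks from 10 weeks of age. Livers of 7 mice of the same transgenic line, fed that Western-type diet alone, gave the control RNA. Each treated liver was labelled with Cy5 and hybridised against control RNA in Cy3 on 2 cDNA arrays, which makes 16 arrays and 0 dye swaps, and no label names a control mouse.

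Each value is a log2 ratio of the 2 channels, and no source used here says which channel is on top. Signs are therefore printed as deposited. Gstm1, a glutathione S-transferase known to be induced by these diterpenes in rodents, was negative on every array (mean log2 ratio -2.48), and Cyp7a1, the bile acid synthesis enzyme that cafestol is known to lower, was positive on every array (1.56). Negative values of the class II genes are called "on the side of Gstm1" below, and no direction is drawn from that. Ratios carry no level, so neither the tissue nor a cell type could be checked by how strongly its markers are expressed. No swap being present, a dye effect of a single probe and the diet cannot be told apart. Fewer cells of a type and less RNA per cell cannot be told apart in whole liver either.

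H2-Aa had the largest ratio of the 3 genes. The gene (Entrez 14960) lies on chromosome 17 in the MHC region. Its log2 ratio was -1.03 in SY518Z, -0.76 in SY524ROB+L, -0.58 in SY521RL and -0.26 in SY522ROB. In the mice with TP identifiers it was -0.998 in TP4168, -0.68 in TP4163, -0.54 in TP4205 and -0.26 in TP4215. It was thus negative in 8 of 8 mice and on 16 of 16 arrays, with SY518Z and TP4168 farthest from 0 and SY522ROB and TP4215 nearest. Of all genes and probes with values in every mouse, 11.2% were negative in 8 of 8. The mean of the 8 mice was -0.64 ± 0.29 (SD), or 1.56-fold in size, with an adjusted p of 0.000101 in limma. It ranked 27 from the most negative of the 8348 genes and unnamed probes tested. At this threshold 43.4% of everything tested was called, 25.4% on the negative side, so a call alone says little here. A minimum difference of 1.2-fold was passed by 1.47% of all genes and probes, and H2-Aa was among them (limma treat, adjusted p = 0.0276). Leaving out any 1 mouse kept its mean between -0.69 and -0.58.

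The regulatory start of H2-Aa is shown because class II genes are known to share short boxes there, which the factors that recruit CIITA bind, and that of the beta chain gene H2-Eb1 because it too was negative in 8 of 8 mice. Each sequence runs from 250 bases before to 50 bases after the RefSeq start of the gene in GRCm38.p6, H2-Aa on the minus strand (chr17:34287774-34288073) and H2-Eb1 on the plus strand (chr17:34305617-34305916). Capitals mark matches to 3 motifs searched on both strands: the Y box CTGATTGG, the X2 box in its palindromic form TGACGTCA, and the X1 box.
H2-Aa: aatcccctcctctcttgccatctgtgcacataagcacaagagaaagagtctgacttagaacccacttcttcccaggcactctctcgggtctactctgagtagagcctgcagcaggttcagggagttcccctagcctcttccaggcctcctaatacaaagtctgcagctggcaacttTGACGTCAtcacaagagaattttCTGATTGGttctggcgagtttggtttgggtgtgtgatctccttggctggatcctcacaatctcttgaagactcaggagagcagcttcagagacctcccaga
H2-Eb1: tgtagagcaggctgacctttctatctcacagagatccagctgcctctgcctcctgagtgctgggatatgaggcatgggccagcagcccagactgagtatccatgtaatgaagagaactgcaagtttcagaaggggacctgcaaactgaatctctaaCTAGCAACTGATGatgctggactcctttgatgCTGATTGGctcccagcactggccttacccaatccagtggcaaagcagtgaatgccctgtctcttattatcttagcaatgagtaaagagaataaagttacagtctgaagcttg
H2-Aa held the X2 box with its first base 74 bases before the start and the Y box 51 bases before it. H2-Eb1 held the X1 box 94 bases and the Y box 62 bases before its start. No 2 matches in these sequences overlapped. Of 32851 promoters of this length in the RefSeq table, 4.1% held the Y box, 1.79% the X2 box and 0.0365% the X1 box. Of the 14 measured class II presentation genes whose promoters were searched, 2 held the Y box in this form, H2-Aa and H2-Eb1. Cd74 was left out of this search beforehand, so whether its promoter holds any of these boxes was not tested. A match is a description of letters, not a bound site.

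H2-Ea stood apart by how little it varied. RefSeq lists it as a transcribed pseudogene on chromosome 17, matched by symbol because the platform's Entrez number, 14968, is not in that table. As background, mice of the C57BL/6 strains carry a deletion at the start of this gene and are known to make no I-E alpha chain, and which transcripts the probe binds in this strain was not tested. Its log2 ratio was -0.32 in SY518Z and in SY524ROB+L, -0.26 in SY521RL and in SY522ROB. It was -0.26 in TP4163 and in TP4205, -0.20 in TP4168 and -0.14 in TP4215. All 8 mice and 16 of 16 arrays were negative, but within a narrow band. The mean of the 8 mice was -0.25 ± 0.06 (SD), or 1.19-fold in size, with an adjusted p of 4.41e-05 in limma, and it did not pass a minimum of 1.2-fold (limma treat, adjusted p = 1). Of the genes and probes with values in all 8 mice, 91.4% varied more over the mice. The SD between the 2 arrays of a mouse was 0.12, larger than the SD of 0.06 between mice, so differences in H2-Ea from mouse to mouse were not detectable. Its array values took only 3 steps of the rounded ratios, -0.14, -0.26 and -0.38.

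Cd74 lay on both sides of 0. The gene (Entrez 16149) is on chromosome 18, outside the MHC region. Its log2 ratio was -0.49 in SY518Z, -0.14 in SY521RL, -0.07 in SY524ROB+L and 0.20 in SY522ROB. It was -0.26 in TP4168, 0.00 in TP4163, 0.07 in TP4205 and 0.26 in TP4215. So 4 mice were negative, 3 positive and the mouse TP4163 at 0, with SY518Z farthest on the negative and TP4215 on the positive side. The mean of -0.05 ± 0.24 (SD, n = 8 mice) was not called (limma, adjusted p = 0.567). Without SY518Z the mean was 0.01 (adjusted p = 0.913), and in the TP mice alone 0.02 (adjusted p = 0.89), both on the other side of 0. A missed threshold does not show that Cd74 was the same in both diets: its SE was 0.07 on the log2 scale.

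The spread of Cd74 between mice was wider than between the 2 arrays of a mouse, which are technical duplicates. The 2 arrays of a mouse gave identical Cd74 values in 5 of 8 mice and differed by at most 0.14 in the others, which gives an SD of 0.24 between mice and 0.06 within mice. Rounding of the ratios to steps of 0.14 makes identical duplicates more likely. For H2-Aa the SD was 0.29 between mice and 0.09 within them, with the widest gap of 0.21 in SY518Z (-1.14 on its bl7 array and -0.93 on its c3z array). Only 1.6% of the genes and probes complete in 8 mice varied more than H2-Aa, and 3.08% more than Cd74. The median SD over mice of everything tested was 0.11.

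**Figure D1:**
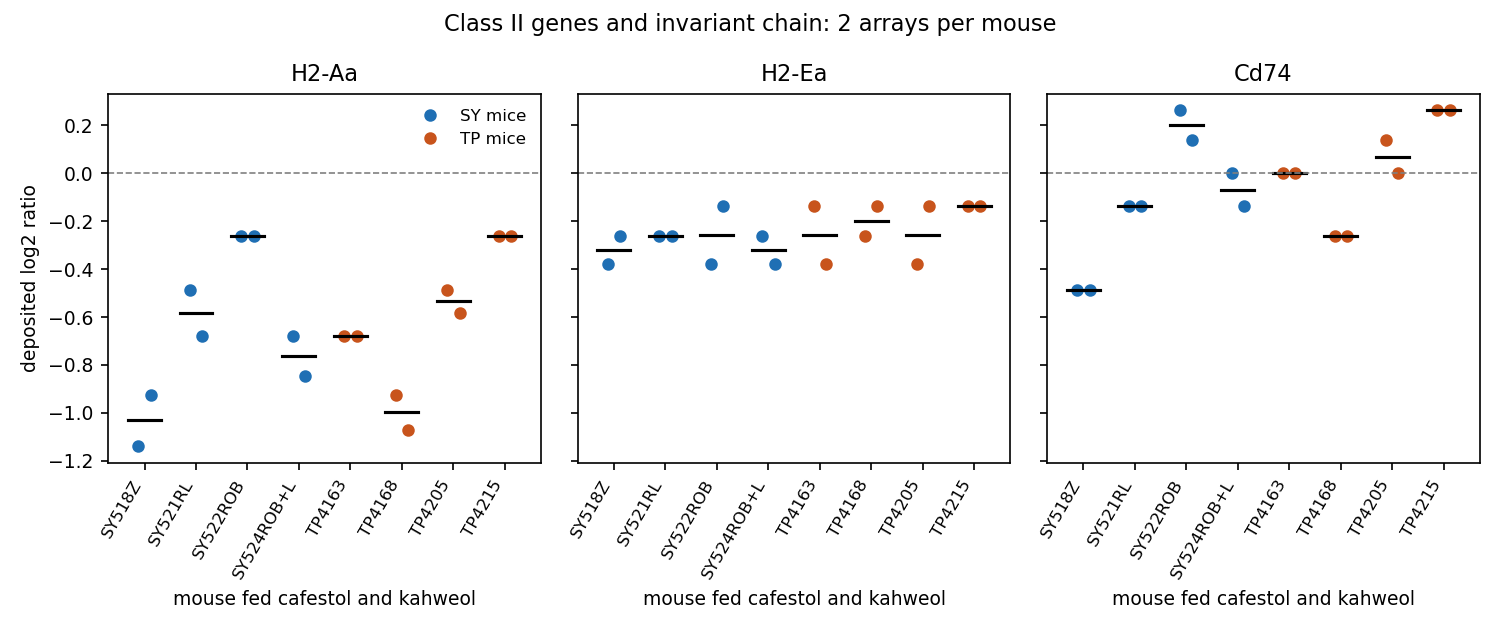
Deposited log2 ratios (vertical axis) of H2-Aa, H2-Ea and Cd74 in each of the 8 treated mice (horizontal axis). Points are the 2 arrays of a mouse, black bars their mean, and colours the SY and TP identifiers. H2-Aa runs from -1.03 to -0.26 and Cd74 from -0.49 to 0.26 over the mice, while H2-Ea stays between -0.32 and -0.14.

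H2-Aa and Cd74 followed each other from mouse to mouse although their means differed. Pearson's r over 8 mice was 0.932 (exact permutation p = 0.00134, adjusted over 3 pairs p = 0.00402) and Spearman's rho was 0.922 (exact permutation p = 0.00268, adjusted p = 0.00804). Without the 2 mice farthest from the Cd74 median, TP4215 and SY518Z, r was 0.896. With the mean of each identifier series subtracted r was 0.958 (exact permutation p = 0.00255). The series hold 4 mice each, too few for a value within each. Both genes were read on the same arrays against control RNA, whose make-up per array no label gives, and its part in this correlation was not tested.

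For H2-Ea no relation to the other members passed the test. Its r was 0.46 with H2-Aa (exact permutation p = 0.26, adjusted p = 0.26) and 0.527 with Cd74 (exact permutation p = 0.175, adjusted p = 0.26). Spearman's rho was 0.506 with H2-Aa (exact permutation p = 0.208) and 0.552 with Cd74 (exact permutation p = 0.167). Without the 2 mice farthest from the median of the first gene, r was 0.06 for H2-Ea with H2-Aa and -0.34 for Cd74 with H2-Ea. For H2-Ea these were TP4215 and SY524ROB+L, but SY518Z had the same value as SY524ROB+L (-0.32). The choice between them was arbitrary, and r without TP4215 and SY518Z was not tested for that pair. The relation of H2-Ea with H2-Aa depended on single mice: r ran from 0.111 to 0.777 when 1 mouse was left out. It passed only without TP4168 (r = 0.777, exact permutation, adjusted p = 0.0357). Since differences in H2-Ea between mice were not detectable, no relation is drawn from that value.

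The ratios of the 3 genes also differed from each other within a mouse. Cd74 minus H2-Aa was positive in 8 of 8 mice, between 0.44 in SY521RL and 0.74 in TP4168, with a mean of 0.59 ± 0.11 (SD, n = 8; exact sign-flip permutation test, adjusted over 3 pairs p = 0.0117). The unadjusted p of 0.00781 is the smallest that 8 mice allow. The gap between the 2 genes varied less over the mice (SD 0.11) than H2-Aa itself (SD 0.29). H2-Ea minus H2-Aa was also positive in 8 of 8 mice, but ranged from 0.01 in SY522ROB to 0.80 in TP4168 (mean 0.39 ± 0.27, SD, n = 8; exact permutation, adjusted p = 0.0117). Cd74 minus H2-Ea averaged 0.20 ± 0.22 (SD, n = 8), positive in 6 mice and negative in SY518Z and TP4168 (exact permutation, adjusted p = 0.0469). That last difference missed the threshold without SY521RL, TP4215, SY524ROB+L, TP4205, SY522ROB or TP4163 (exact permutation, adjusted p 0.0625 to 0.0938).

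The beta chain gene H2-Eb1, whose protein pairs with the I-E alpha chain, was negative in every mouse too. It was -0.63 in SY518Z, -0.38 in SY521RL, -0.20 in SY524ROB+L and -0.14 in SY522ROB. In the TP mice it was -0.68 in TP4168, -0.49 in TP4163, -0.43 in TP4205 and -0.14 in TP4215. The mean was -0.38 ± 0.21 (SD, n = 8; limma, adjusted p = 0.000447), and SY522ROB and TP4215 were again nearest to 0. Its r was 0.839 with H2-Aa (rho 0.807) and 0.805 with Cd74 (rho 0.778), with exact permutation p of 0.0113 and 0.0148 for r, 0.0215 and 0.0301 for rho. After adjustment over 8 relations looked at after the values were seen, the p for r was 0.0591 for both, which misses the threshold, and r was 0.585 and 0.689 without the 2 farthest mice. With H2-Ea its r was 0.183 (rho 0.111; exact permutation p = 0.671).

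**Figure D2:**
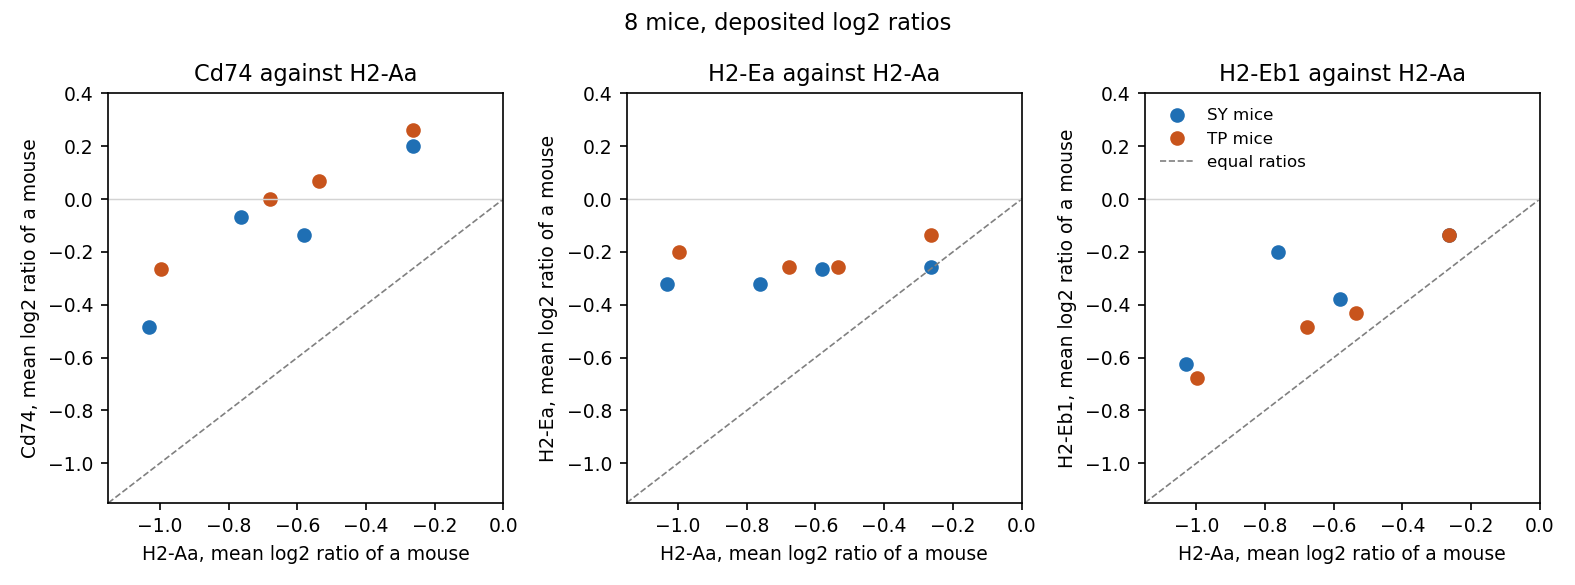
Mean log2 ratio of Cd74, H2-Ea and H2-Eb1 (vertical axes) against that of H2-Aa (horizontal axes) in the 8 mice, with points coloured by SY and TP identifiers and a dashed line where both ratios are equal. Cd74 lies 0.44 to 0.74 above the line in every mouse, H2-Ea forms a flat band, and SY522ROB and TP4215 share 1 point in the panel of H2-Eb1.

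No difference between the SY and TP identifier series, whose meaning no label gives and which nearly follow the array codes c3z and bl7, was called for the 3 genes. For H2-Aa the SY mean was -0.66 and the TP mean -0.62, a difference of -0.04 (SE 0.16; limma, adjusted p = 0.88). H2-Ea averaged -0.29 in SY and -0.21 in TP mice (difference -0.08, SE 0.05, adjusted p = 0.379), and Cd74 -0.12 in SY and 0.02 in TP mice (difference -0.14, SE 0.13, adjusted p = 0.534). In this comparison 5.7% of all genes and probes were called. Each series thus held a mouse near -1 and a mouse at -0.26 for H2-Aa.

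The wider class II pathway went both ways. Of 21 measured genes of class II presentation, the 3 members among them, 9 were negative, 3 positive and 9 not called, with a median log2 ratio of -0.08. Over everything tested, 25.4% were called negative and 18% positive, with a median of -0.02. Leaving out any 1 mouse gave 8 to 10 negative genes. The 2 genes nearest to the classical chains by role, H2-DMa and H2-DMb1, which encode the chaperone that exchanges the remnant of the invariant chain for peptide, were at -0.06 ± 0.12 and 0.01 ± 0.11. H2-Ob, a chain of the inhibitor of that exchange, was at 0.01 ± 0.07. None of these 3 was called (limma, adjusted p 0.259, 0.873 and 0.838), and their differences from H2-Aa and H2-Eb1 were not tested.

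Proteases of the endosome were among the genes farthest from 0. Lgmn, a protease that can cut the invariant chain, had a mean of -0.53 ± 0.18 (SD, n = 8; limma, adjusted p = 1.84e-05). Ctss, which cuts later pieces of the invariant chain, was at -0.38 ± 0.26 (adjusted p = 0.00161). The aspartic protease Ctsd was at -0.51 ± 0.18 (adjusted p = 2.96e-05). Lgmn and Ctsd were negative in 8 of 8 mice and Ctss in 7, while the cathepsin Ctsh lay on the other side (0.17 ± 0.11, adjusted p = 0.00279) and Ctsb was not called (-0.10 ± 0.12, adjusted p = 0.0562). In the TP mice alone Ctss and Ctsh did not pass (adjusted p = 0.136 and 0.0772).

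The regulators had smaller ratios. Ciita, the coactivator, was at -0.14 ± 0.11 (SD, n = 8; limma, adjusted p = 0.00925), negative in 7 of 8 mice, but its mean is about 1 step of the rounded ratios (0.14), and it did not pass on the first arrays of the mice alone (adjusted p = 0.078) or with a control spread added (adjusted p = 0.0851). Its mean was -0.21 in SY and -0.07 in TP mice, where it did not pass alone (adjusted p = 0.145), and the difference between the series was not called (adjusted p = 0.162). Nfya, a subunit of the factor that binds the Y box, was at 0.10 ± 0.10 (adjusted p = 0.0393), and lost its call without any 1 of SY521RL, TP4168, SY524ROB+L, TP4205, SY522ROB or TP4163 (adjusted p 0.0617 to 0.0871). Rfxank (-0.08), a subunit of the factor on the X1 box, Creb1 (-0.07) and Nfyb (-0.07) were not called. Among genes that antigen-presenting cells use to address T cells, Cd40 was at -0.19 ± 0.12 (adjusted p = 0.00238) and Cd86 at -0.09 ± 0.07 (adjusted p = 0.0275). Cd80 was positive in 8 of 8 mice (0.21 ± 0.07, adjusted p = 0.000226). Cd86 lost its call without SY518Z, TP4205 or TP4163 (adjusted p 0.0598 to 0.0772). Marchf1, a ligase that removes class II molecules from the surface, was at -0.04 and not called.

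**Figure D3:**
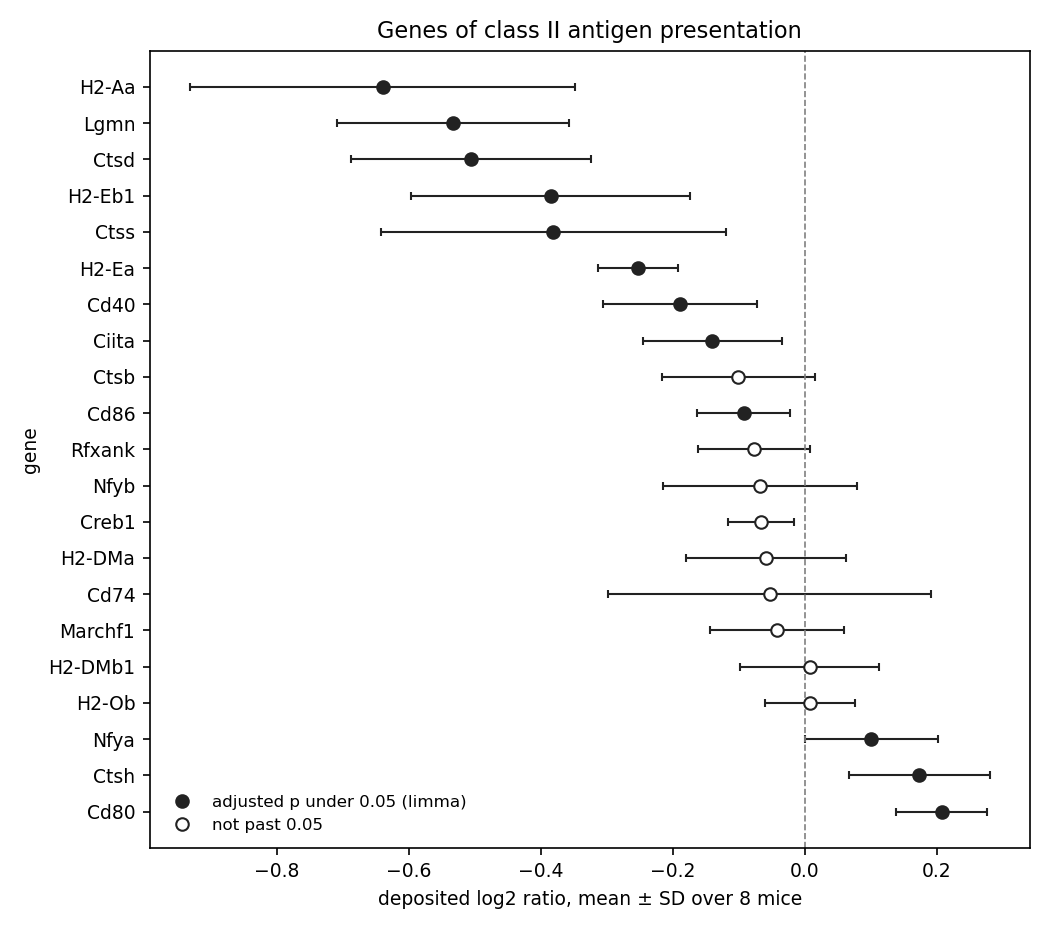
Mean log2 ratio over 8 mice (horizontal axis) of the 21 measured genes of class II presentation (vertical axis), with bars of 1 SD. Filled points passed an adjusted p of 0.05 in limma. H2-Aa is farthest from 0 at -0.64, H2-Ea has 1 of the shortest bars, and the bar of Cd74 spans 0.

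Partners of the invariant chain lay mostly on the side of Gstm1. Besides its chaperone role, Cd74 is the surface receptor for the cytokine Mif and signals together with Cd44. Mif was at -0.44 ± 0.08 (SD, n = 8; limma, adjusted p = 2.46e-06) and Cd44 at -0.22 ± 0.13 (adjusted p = 0.00147), both negative in 8 of 8 mice. Sppl2a, the membrane protease that clears the last piece of the invariant chain, was at -0.18 ± 0.13 (adjusted p = 0.00383), and App, whose protein is known to bind the invariant chain in cultured cells, at -0.31 ± 0.17 (adjusted p = 0.000621). In the TP mice alone neither passed (adjusted p = 0.124 for Sppl2a and 0.0871 for App). Of 6 measured genes of this list 4 were negative and 1 positive, the chemokine receptor Ackr3 (0.17 ± 0.07), with a median of -0.20. Beside this, 25.4% of everything tested was called negative and 18% positive.

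Class I presentation and the interferon gamma response did not show 1 common side. Of 11 measured genes of the class I list 4 were negative and 1 positive (median -0.04), beside 25.4% and 18% called over everything tested. The list counts H2-Ke6 (-0.03, not called), which is not a class I chain, and no heavy chain is among its measured genes. Negative were the light chain B2m (-0.39 ± 0.17) and the proteasome activator Psme1 (-0.15 ± 0.14). So were the chaperones Calr (-0.44 ± 0.14) and Pdia3 (-0.31 ± 0.20), which also serve general protein folding. The positive gene, the peptide transporter subunit Tap1 (0.10 ± 0.10), lost its call without any 1 of SY521RL, SY518Z, TP4215, TP4168, TP4205 or TP4163. Psme1 lost its call without TP4168 (adjusted p = 0.0614) or TP4205 (0.0571). Of 22 genes of the interferon gamma response 5 were negative and 8 positive (median 0.03), beside the same 25.4% and 18%. The negative count was 3 without TP4168, TP4205 or TP4163. The interferon-induced GTPase Iigp1 (0.36 ± 0.15), Ifit3 (0.31 ± 0.28) and the transcription factor Irf9 (0.27 ± 0.13) were positive, while the myeloid and B cell factor Irf8 was negative (-0.29 ± 0.08, negative in 8 of 8 mice). The mean of this list ranged over the mice between -0.00 in SY524ROB+L and 0.14 in TP4215. Its r with H2-Aa was 0.682 (rho 0.707; exact permutation p = 0.0623 and 0.0595, adjusted over 8 relations p = 0.166 and 0.159). Without the 2 mice farthest from the H2-Aa median, SY518Z and TP4168, r was 0.939. SY522ROB and TP4215 lay almost as far from that median on the other side and had the highest list means (0.10 and 0.14). The relation without SY522ROB and TP4215 was not tested.

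Markers of the cells that carry class II molecules did not move as 1 group. Of 15 measured macrophage markers 9 were negative, 2 positive and 4 not called (median -0.16), beside 25.4% negative and 18% positive of everything tested. Farthest from 0 were the lysosomal protein Cd68 (-0.65 ± 0.22) and the lectin Lgals3 (-0.58 ± 0.32). The complement chain C1qc was at -0.28 ± 0.18, and the myeloid transcription factor Spi1 was positive (0.28 ± 0.10, n = 7 mice). The other complement chains C1qa and C1qb (both -0.23) and the lysozyme gene Lyz2 (-0.16) were called negative, and the scavenger receptor Cd163 positive (0.17). The 4 that were not called were the Kupffer cell lectin Clec4f (-0.05), the surface marker Adgre1 (-0.03), the scavenger receptor Marco (-0.16 ± 0.48) and the chemokine receptor Ccr2 (0.04). For Marco the SY mean was -0.50 and the TP mean 0.17 (limma, adjusted p = 0.0512 for the difference). For Adgre1 the SY mean was -0.18 and the TP mean 0.13 (adjusted p = 0.0483), a difference that was not called on first arrays alone (adjusted p = 0.131), beside 5.7% called of all genes and probes. The mean over the list was 0.12 in TP4215 and lay between -0.30 and -0.07 in the other 7 mice. It was -0.18 in SY522ROB, the mouse that shared the smallest H2-Aa ratio with TP4215. Its r with H2-Aa was 0.639 (rho 0.587; exact permutation p = 0.085 and 0.135, adjusted over 8 relations p = 0.17 and 0.271), and 0.569 without SY518Z and TP4168.

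Of 3 measured dendritic cell markers, Ccr7 (0.03), Irf4 (0.12) and Fscn1 (0.00), 0 were called (limma; 1 at an unadjusted p under 0.05), and 1 was called positive without SY518Z. The mean over the list lay between -0.07 and 0.21 over the mice. Of 7 markers of B and plasma cells only the antibody joining chain Jchain was called (-0.19 ± 0.17), and not in the SY mice alone (-0.05, adjusted p = 0.499) or with a control spread added (adjusted p = 0.0952). The median of the list was -0.03, and 2 were called without TP4215. The list mean lay between -0.11 and 0.01. The B cell receptor chain Cd79a stood at 0.03 and Ms4a1 at 0.00. T cell markers had 4 of 7 negative and 1 positive (median -0.10), with Cd52 (-0.40 ± 0.19), Cd8a (-0.17 ± 0.12) and Cd3g (-0.10 ± 0.05) negative and Cd3d positive (0.15 ± 0.14). Beside the counts of these lists, 25.4% of everything tested was called negative and 18% positive. The r of H2-Aa was -0.05 with the dendritic cell list (rho 0.181), 0.398 with the B cell list (rho 0.311) and 0.484 with the T cell list (rho 0.383), with exact permutation p from 0.226 to 0.9 for r and from 0.345 to 0.667 for rho. Without SY518Z and TP4168 r was 0.159 with the dendritic cell list, -0.05 with the B cell list and 0.167 with the T cell list. The part of cell numbers in the ratio of H2-Aa was not tested.

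Of 7 measured stellate cell markers 5 were negative and Des (-0.04) and Dcn (-0.11) were not called (median -0.20), beside 25.4% called negative of all genes and probes. The negative ones included smooth muscle actin Acta2 (-0.49 ± 0.28), Col1a1 (-0.31 ± 0.28), Col1a2 (-0.20 ± 0.20) and Pdgfrb (-0.20 ± 0.07). Acta2 did not pass in TP mice alone (adjusted p = 0.0727), nor Col1a1 (0.244) and Col1a2 (0.202) in SY mice alone. With a control spread added Col1a1 (0.0768) and Col1a2 (0.108) did not pass. The list mean was lowest in SY518Z (-0.49) and TP4168 (-0.33) and highest in TP4215 (-0.09) and SY522ROB (-0.05). These were also the mice with H2-Aa farthest from 0 and nearest to it. The relation of this list, and of the endothelial and hepatocyte lists, to H2-Aa was not tested. Endothelial markers had 2 of 6 negative, Eng (-0.29 ± 0.07) and Cdh5 (-0.17 ± 0.09). Hepatocyte markers had 1 of 5 negative, Apoa1 (-0.52 ± 0.35), and 2 positive, Fgb (0.23 ± 0.11) and Apob (0.12 ± 0.12), with a median of 0.12. Of all genes and probes 18% were called positive. Without SY518Z the count of negative markers was 2. The call of Apob was lost when SY518Z, TP4215, TP4205 or TP4163 was left out (adjusted p 0.0604 to 0.0847). In SY518Z the mean over everything tested was -0.04, the lowest of the 8 mice.

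**Figure D4:**
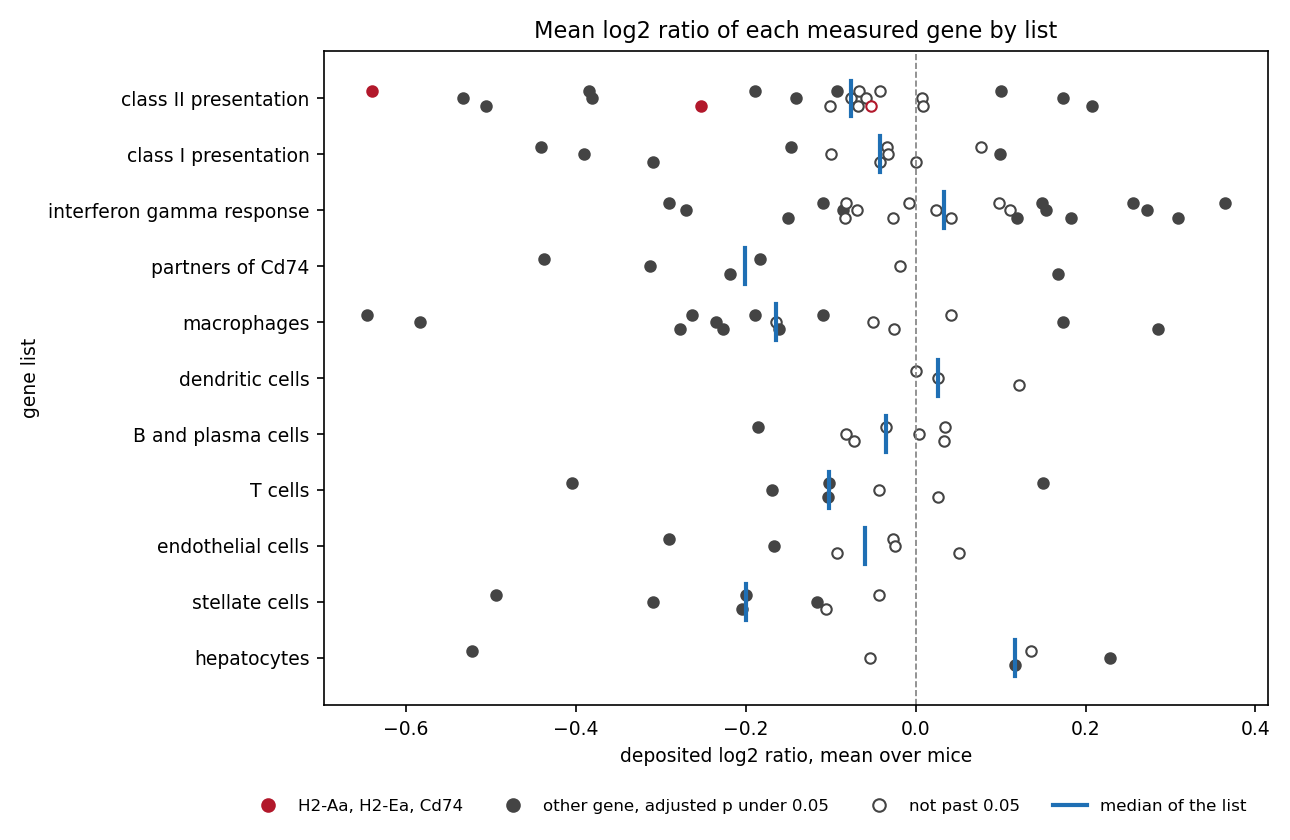
Mean log2 ratio over mice (horizontal axis) of every measured gene in 11 lists (vertical axis). Red points are H2-Aa, H2-Ea and, open, Cd74; filled points passed an adjusted p of 0.05 in limma, open ones did not, and blue bars are list medians. H2-Aa at -0.64 lies near Cd68 at -0.65, the dendritic cell markers sit at or above 0, and the interferon gamma list spreads to both sides.

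The genes whose pattern over the 8 mice was most like the mean of the 3 members were sought among 418 named genes complete in 8 mice with an SD of at least 0.2. They were Bgn (r = 0.919), Tgfbi (0.91), Psap (0.907), Acta2 (0.863), Agrn (0.844) and Acta1 (0.841), and these r values chose the genes and carry no test. Bgn, a matrix proteoglycan, averaged -0.18 ± 0.22, and the matrix protein Tgfbi -0.27 ± 0.21. Psap, the precursor of the lysosomal saposins, averaged -0.49 ± 0.26 and the skeletal actin Acta1 -0.57 ± 0.21, whose probe can also bind other actins. Agrn averaged -0.02 ± 0.21, so likeness of pattern went with means near 0 as well as far from it. The gene nearest to H2-Aa was Cd74, and the genes nearest to Cd74 were Bgn (r = 0.959) and then H2-Aa. For H2-Ea they were Cd53 (0.94), Ap4b1 (0.88) and Top2a (0.871), on values that span less than 0.2 in H2-Ea. The 2 arrays of a mouse differed more in H2-Ea (SD 0.12) than the mice did (SD 0.06), so these likenesses may reflect array noise.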

How the data were processed

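Liver RNA of 8 treated mice was measured on 16 two-colour GEM 2.03 arrays. The deposited values are log2 ratios of both channels. Poly(A) RNA was labelled with Cy3 (control) and Cy5 (treated), per the labels' protocols. Normalization, background treatment, the reason for blanks and the ratio's direction were not given in the sources used here. Each of the 144660 values was the log2 of a ratio rounded to 1 decimal, with either sign (10 times the ratio within 0.01 of a whole number), so 1 step from 0 is 0.14 and 31.8% of values were 0. Each array's median was 0, and arrays had values for 8094 to 9314 probes. The number of arrays and mice limits the precision.

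Gene names come from the 2007 platform annotation, checked by Entrez numbers in a RefSeq table (GRCm38.p6): 7407 probes had 1 symbol, 437 several and 1752 none. Of the 7407, 7330 had an Entrez number in the table, and 0 symbols changed. Probes of a gene and then the 2 arrays of a mouse were averaged. The 8348 genes and unnamed probes with values in at least 6 mice were fitted with limma 3.58.1 in R 4.3.3 (lmFit, eBayes, two-sided, Benjamini-Hochberg over all 8348; called means adjusted p under 0.05). The mean ratio was tested against 0, which leaves out the spread of control mice. The p-values measure the spread between these mice. Single values were tested by exact permutation (two-sided). The script was tested on simulated data: of 8348 genes, 70.9% of 1.2-fold and 97.3% of 1.5-fold changes against 0 were recovered, and 30.9% and 84% of such differences between SY and TP. In each comparison 9 unchanged genes were called. Only 55, 75 and 70 genes were changed 1.2-, 1.5- and 2.0-fold, while 43.4% were called in the data. Both simulated arrays of a mouse were identical, so these shares need not hold for the data.

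Members and lists were chosen with earlier results of these data known. Named genes were the members, every measured gene of class II presentation, up to 4 called genes of each other list by size, and those most like the members; Gstm1, Cyp7a1, Adgre1, Clec4f, Marco, Ccr2, Cd163, C1qa, C1qb, Lyz2, Cd79a, Ms4a1, Tap1, Ackr3, Des, Dcn and the dendritic cell markers were added after their values were seen. Alternatives covered centring, scaling, quantile normalization, single probes, filters on blanks, single arrays, arrays blocked by mouse, robust moderation, a minimum fold, the spread of control mice, each identifier series and leaving out each mouse. Sequences are from RefSeq, GRCm38.p6. Figures used matplotlib 3.10.9.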

Additional observations from a re-analysis of the deposited data

Results flagged for a closer look

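Of 78 named genes, 4 had a mouse far from the others by Dixon's criterion, and chance alone gives about 1 in 20. TP4215 was the highest mouse for Lgmn at -0.14, for the complement chain C1qc at 0.14 and for the leukocyte tetraspanin Cd53 at 0.14. SY522ROB was the highest for Ackr3 at 0.32.

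In 5 of these 78 genes, or 6.41%, the ratio differed between SY and TP mice (limma, adjusted p under 0.05), beside 5.7% of all genes and probes. The SY and TP means were 0.05 and -0.18 for Nfyb (difference 0.23, adjusted p = 0.0497), and -0.05 and -0.32 for Jchain (difference 0.27, adjusted p = 0.0353). They were 0.09 and 0.40 for Ap4b1 (difference -0.31, adjusted p = 0.0475), -0.11 and 0.28 for Top2a (difference -0.40, adjusted p = 0.0255), and -0.18 and 0.13 for Adgre1 (difference -0.31, adjusted p = 0.0483). On first arrays alone 0 of these 5 were called (limma, adjusted p 0.131 to 0.2), although each had an unadjusted p under 0.05, and the differences kept their signs.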

How the results depend on the processing

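H2-Aa was negative and called under 24 of 24 alternatives (means -0.69 to -0.58) and H2-Ea under 23, failing a minimum of 1.2-fold (-0.25, adjusted p = 1). Centring and scaling by the median absolute value changed no value, because every array had median 0 and median absolute value 0.14. Each member has 1 probe, so taking single probes left its values as they were. The counts of alternatives include these settings. Cd74 was called under none of 24 (limma, adjusted p 0.267 to 1; unadjusted p = 0.467 in all 8 mice). The number of called genes and probes was 3622, and 2095 in SY mice alone, 1805 with a control spread added, 123 past 1.2-fold, and 3034 to 3688 without any 1 mouse. The number that differed between SY and TP was 476, and 0 on first arrays alone (limma; 1467 at an unadjusted p under 0.05), 228 on second arrays, 940 and 27 with SY518Z taken from its c3z or bl7 array, and 57 to 1275 (without SY518Z) when 1 mouse was left out. The 3 members were called under none of these settings between SY and TP (adjusted p 0.131 to 0.989). Alternatives for the differences and correlations between members were chosen after seeing the data. Cd74 minus H2-Ea was 0.15 on second arrays (exact permutation, adjusted p = 0.0938) and 0.16 to 0.25 without 1 mouse. The r of H2-Ea with H2-Aa was 0.111 to 0.777 without 1 mouse, and that of Cd74 with H2-Aa 0.884 to 0.956 under every alternative run. Of 1231 results of the other 56 genes, 1106 kept their side of the threshold, 113 lost the call, 12 gained one and 0 reversed. The kept results include those under centring and scaling that changed no value. The causes were not tested. No paired analysis was possible because all mice belong to 1 group and no control mouse is labelled. Values rounded to 1 decimal of the ratio limit what can be seen below 0.14 on the log2 scale, and no signal over background is given.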
